A study of Homo sapiens with 48 samples.

Results

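The genes described here are 42 genes of homologous recombination, the Fanconi anaemia pathway, mismatch repair and the checkpoint that signals DNA damage. They were taken as every probe on the array whose gene symbol is one of these 42, out of 31426 gene symbols in all. The 42 genes had 77 probes, of which 56 were detected, at a detection p-value under 0.01, on at least 2 of the 48 arrays. Those 56 probes covered 37 genes, which were described by their brightest probe. BRCA2, FANCF, FANCM, PMS1 and XRCC4 were not detected on 2 arrays and have no value below. XRCC4 is a gene of end joining.

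Homologous recombination repairs a broken chromosome by copying the intact sister. The ends are trimmed to single strands, BRCA1 and its partners load a recombinase onto them, and helicases and nucleases resolve the joined strands. The Fanconi proteins form a ubiquitin ligase complex that marks FANCD2 and FANCI at crosslinked DNA, and mismatch repair proteins of the MutS and MutL families find and remove replication errors. ATM and ATR are the kinases that signal breaks and stalled forks to CHEK2 and CHEK1. Many of these genes are transcribed mainly in cells that replicate their DNA, and lower levels of several of them in hypoxic cancer cells are well known.

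The arrays measured total RNA from 2 human prostate cancer lines, 22Rv1 and PC-3, the second of which came from a bone metastasis. Cells were kept for 24 h at 37 °C in a hypoxia chamber, at 0, 0.2 or 0.5% O2, at 1 or 2% or at 5%, or in normoxia, and each oxygen level had its own normoxia control. Each line, level and condition had 2 numbered replicates, which gives 24 groups of 2 arrays, with 12 hypoxia and 12 normoxia arrays in each line. All groups shared the same medium with serum, and none carried a genetic change made for the study. Nothing in the labels says that the replicates were separate cultures, so p-values measure only the spread between these samples, and each line stands for itself alone.

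Each array detected between 13750 and 16494 probes, with a median of 15405, and each group rests on 2 arrays. The prostate genes KLK2 and FOLH1 were detected on 24 of 24 arrays of 22Rv1 and on 0 of 24 of PC-3. Other prostate genes did not separate the lines in this way. TMPRSS2 and STEAP2 were detected on all 24 arrays of both lines. SLC45A3 was detected on 23 arrays of 22Rv1 (mean 6.16) and on 24 of PC-3, where it was brighter (mean 8.41). The epithelial genes KRT8, KRT18, KRT19, EPCAM and CDH1 were detected on all 24 arrays of both lines. Of 8 markers of blood, vessel and stromal cells, 5 were not detected on 2 arrays, CD14 was detected on 10 arrays of each line, PECAM1 on 0 arrays of 22Rv1 and 22 of PC-3, and COL1A1 on 6 of 22Rv1 and 21 of PC-3. Genes induced by the hypoxia factor HIF rose: 9 of 10 measured passed the test in 22Rv1 and 10 of 10 in PC-3. The 2 deposited tables exchange the labels of 2 arrays, hypoxia and normoxia of replicate 2 at 0.2% O2 in 22Rv1. Under the labels of the intensity table used here, ADM, a HIF target, stood at 12.12 and 10.77 in hypoxia and at 6.50 and 6.80 in normoxia. Counts that rest on these arrays are also given without them or with their labels exchanged.

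In 22Rv1, 26 of the 37 genes were lower and 2 were higher in hypoxia when the 6 oxygen levels were averaged. Of all 16438 genes tested, 22.8% were lower and 19.8% higher in that comparison. The median change of the 37 genes was -0.52 on the log2 scale, against -0.01 for all genes. CHEK1, BLM and EXO1 fell most, each to less than its lowest normoxia level on most hypoxia arrays. The test was limma on log2 intensities with a Benjamini-Hochberg adjustment over all genes tested, and a gene was called at an adjusted p under 0.05; every change is the hypoxia group minus its own normoxia group, given with the standard error (SE) of the fit. Without the 2 arrays of doubtful label the counts were 24 lower and 2 higher, and with their labels exchanged 24 lower and 1 higher.

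In PC-3, 17 of the 37 genes were lower and 2 were higher, while 13.3% of all genes tested were lower and 10.7% higher. The median change was -0.18, against -0.01 for all genes. UBE2T and RAD51C had the largest mean changes there, -0.50 each. The 19 calls rested partly on single arrays: 12 were left without the normoxia array of replicate 1 at 0.2% O2, 12 without the hypoxia array of replicate 2 at 5% and 12 without that at 2%. Of the 19, 11 passed under median centring and 11 without the filter on dim probes.

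**Figure D1:**
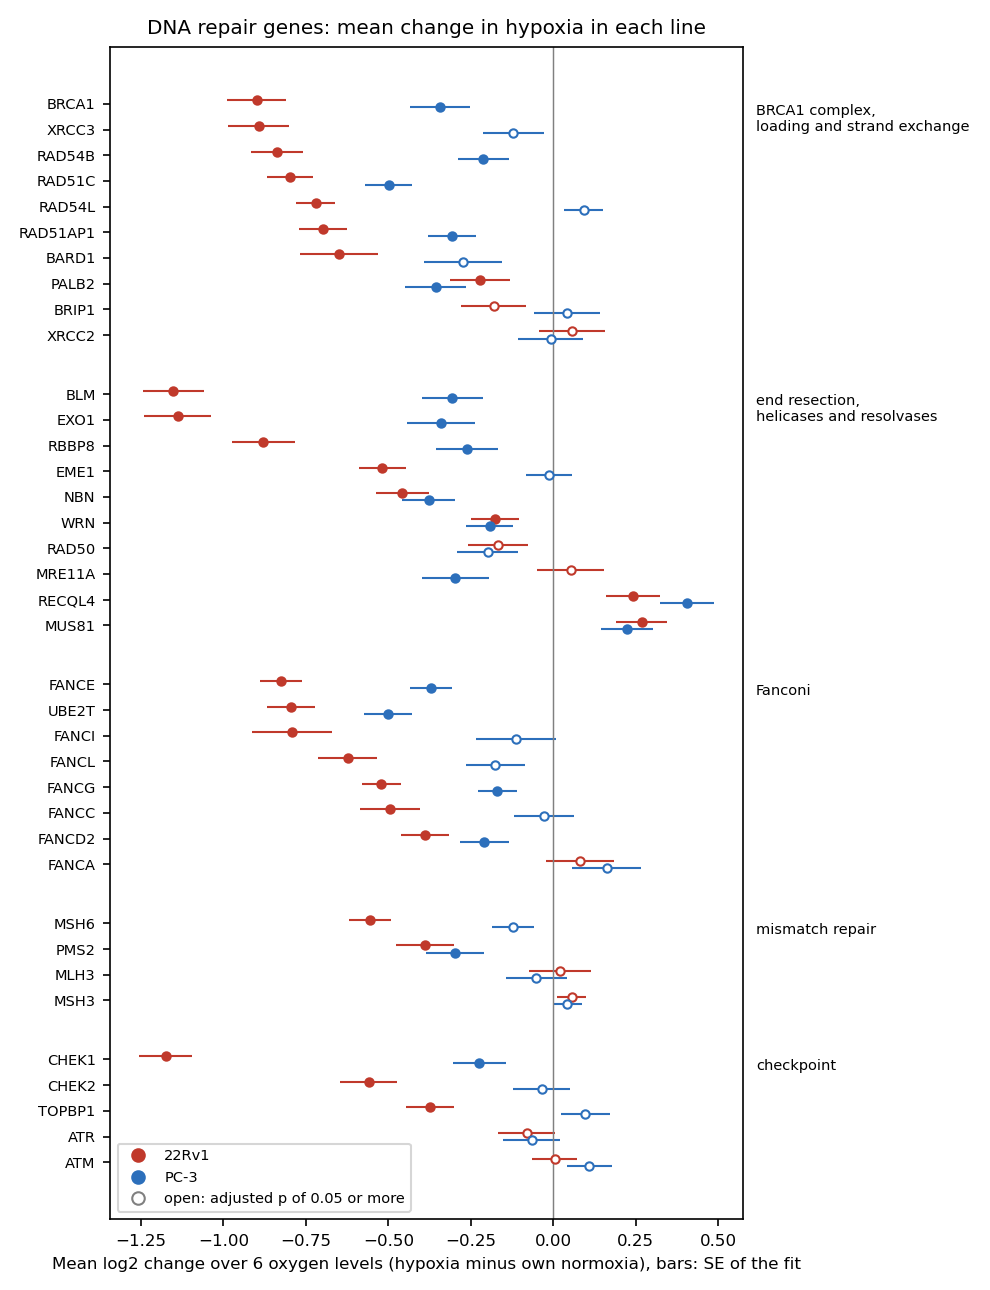
Mean log2 change over the 6 oxygen levels (hypoxia minus own normoxia, horizontal axis) of the 37 genes with a detected probe, grouped by role, in 22Rv1 (red) and PC-3 (blue). Bars show the SE of the fit and filled points passed the test; 26 points of 22Rv1 and 17 of PC-3 are filled left of 0, and MUS81 and RECQL4 are the filled points right of 0 in both lines.

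Markers of the cell cycle moved in the same comparison. Of 20 S phase markers, 19 were lower in 22Rv1 (median change -0.96) and 6 in PC-3 (median -0.18), and of 20 G2 and M phase markers, 20 were lower in 22Rv1 (median -0.59) and 2 in PC-3 (median -0.08). CCNE2 and UHRF1 led the S phase markers in 22Rv1 at -1.45 and -1.35, and CCNA2 and BIRC5 the G2 and M phase markers at -0.92 and -0.80. Their part in the changes of the repair genes was not tested. In RNA from whole cultures, fewer cells in a phase and less RNA per cell cannot be told apart.

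The first role is that of the BRCA1 complex and of the proteins that load the recombinase and exchange strands, with 10 detected genes. In 22Rv1, 8 of the 10 were lower and 0 higher (median -0.71), and in PC-3, 5 were lower and 0 higher (median -0.24). BRCA1, the ligase subunit that directs breaks to recombination, had a lowest, median and highest level of 6.13, 7.36 and 8.16 on the 12 hypoxia arrays of 22Rv1, against 8.06, 8.24 and 8.44 on the 12 normoxia arrays. The ranges overlapped only through the hypoxia array of replicate 2 at 5% O2, and all 12 hypoxia arrays lay below the control of the same number. The mean change was -0.90 ± 0.09 (SE), 1.87-fold lower (limma, adjusted p = 6.8e-10). In PC-3, where BRCA1 was dimmer, the hypoxia arrays ran from 6.07 through a median of 6.46 to 6.97 and the normoxia arrays from 6.54 through 6.69 to 7.22, a change of -0.34 ± 0.09 (adjusted p = 0.0046).

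XRCC3, a paralog of the recombinase, spanned 5.18 to 7.30 with a median of 6.28 in hypoxic 22Rv1, against 6.88 to 7.53 with a median of 7.20 in normoxia. It was 1.86-fold lower (-0.89 ± 0.09, adjusted p = 1.2e-09) and lower in 11 of 12 pairs. RAD54B, a motor protein that helps strand exchange, spanned 6.20 to 7.71 with a median of 6.69 in hypoxia and 7.39 to 8.06 with a median of 7.63 in normoxia. Its change was -0.84 ± 0.08 (adjusted p = 1.3e-10), with 11 of 12 pairs lower. In PC-3 the change was -0.21 ± 0.08 for RAD54B (adjusted p = 0.045) and -0.12 ± 0.09 for XRCC3 (adjusted p = 0.4, not called). The PC-3 call of RAD54B was lost without any 1 of 15 of the 24 arrays and without 0% O2 (adjusted p = 0.068). It was also lost under median centring (0.11), in the other deposited table (0.13) and without the filter (0.079).

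RAD51C, another paralog of the recombinase, was lower in both lines. In 22Rv1 the hypoxia arrays spanned 8.56 to 9.76 and the normoxia arrays 9.84 to 10.24, with no overlap, and the change was -0.80 ± 0.07 (adjusted p = 3.6e-11). Its 12 hypoxia arrays of PC-3 lay between 9.07 and 9.73 with a median of 9.37, and the 12 normoxia arrays between 9.66 and 10.01 with a median of 9.87. Every pair was lower, and only the hypoxia array of replicate 1 at 5% O2 reached into the normoxia range. The change in PC-3 was -0.50 ± 0.07, 1.41-fold lower (adjusted p = 1.5e-06). All 3 detected probes of RAD51C were lower in each line.

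PALB2, which bridges BRCA1 to the recombinase loader, spanned 4.98 to 5.87 with a median of 5.39 in hypoxic PC-3 and 5.47 to 6.15 with a median of 5.78 in normoxia, overlapping ranges with 10 of 12 pairs lower. It fell by 0.36 on the log2 scale in PC-3 (SE 0.09, adjusted p = 0.0036) and was near the threshold in 22Rv1 (-0.22 ± 0.09, adjusted p = 0.049), where the call was lost without both arrays of doubtful label (-0.17, adjusted p = 0.16) and without any 1 of 17 of the 24 arrays. RAD54L, RAD51AP1 and BARD1, partners of strand exchange and of BRCA1, were lower in 22Rv1 by -0.72, -0.70 and -0.65, and of the 3 only RAD51AP1 was called in PC-3, at -0.31. BARD1 changed by -0.27 in PC-3 (adjusted p = 0.095), and was called there with each same-numbered hypoxia and normoxia pair as a block (adjusted p = 0.004). BRIP1, a helicase that binds BRCA1, was not detected on any 22Rv1 array and on 5 of 24 PC-3 arrays. XRCC2 was detected on every array and was not called in either line, with changes of 0.06 ± 0.10 in 22Rv1 and -0.01 ± 0.10 in PC-3.

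**Figure D2:**
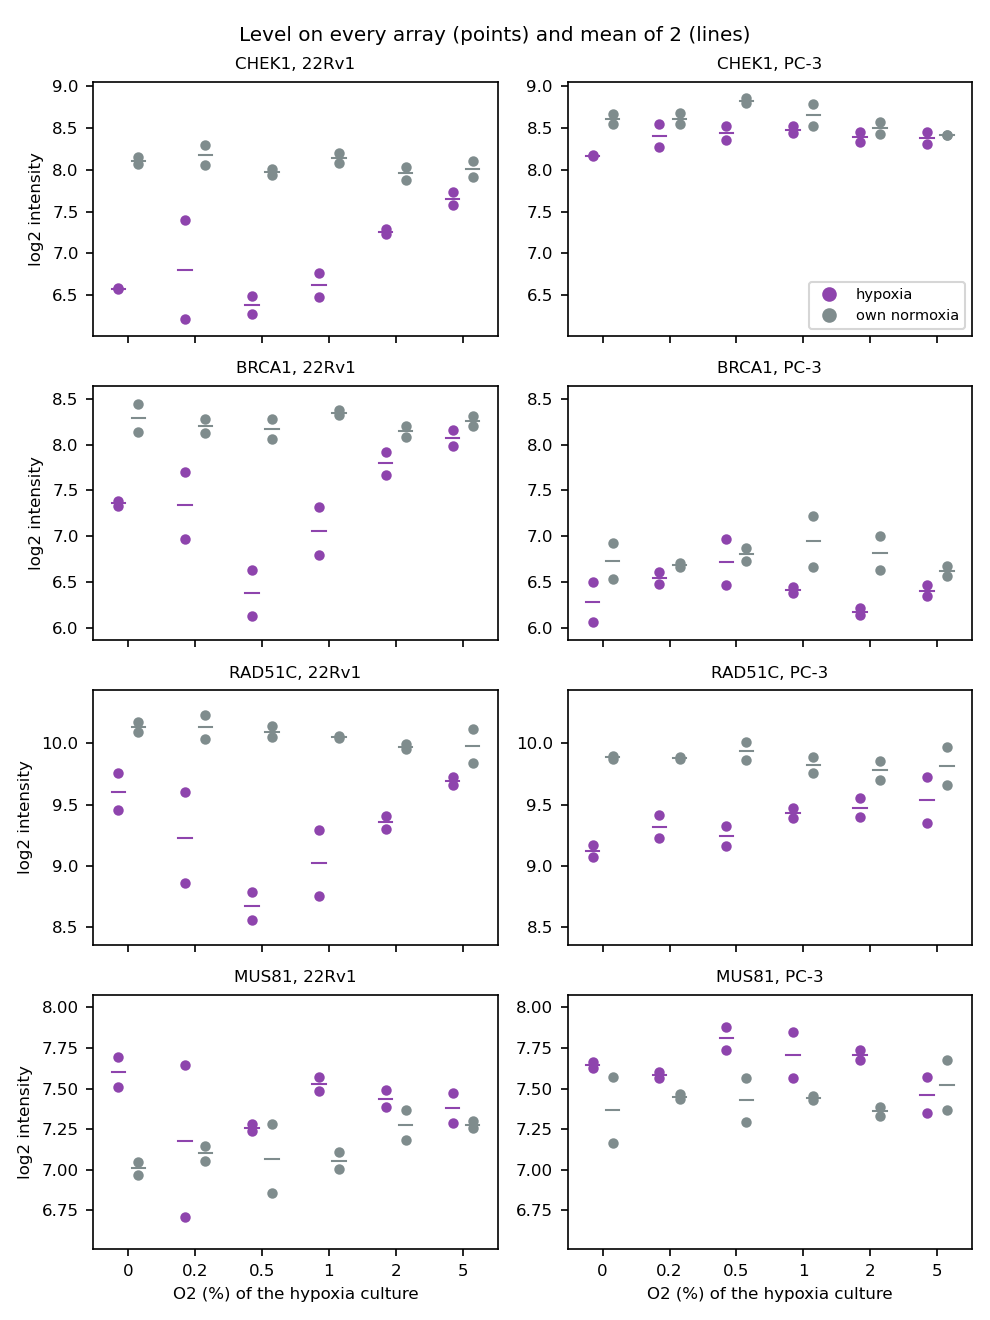
Normalised log2 intensity (vertical axis) of CHEK1, BRCA1, RAD51C and MUS81 on all 48 arrays, by the O2 level of the hypoxia culture (horizontal axis), with hypoxia arrays in purple, left of their own normoxia arrays in grey; lines mark means of 2. In 22Rv1, CHEK1 and BRCA1 lie far below their controls from 0 to 1% O2 and close to them at 5%, RAD51C lies lower in both lines, and MUS81 higher on most hypoxia arrays.

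The nucleases, helicases and resolvases split in direction. Of 10 detected genes, 6 were lower and 2 higher in 22Rv1 (median -0.32), and 6 were lower and 2 higher in PC-3 (median -0.23). EXO1, an exonuclease used in end trimming and in mismatch repair, spanned 5.48 to 8.37 with a median of 7.37 on hypoxia arrays of 22Rv1, against 8.02 to 8.43 with a median of 8.33 on normoxia arrays. All 12 pairs were lower, with the lowest array at 0.5% O2 and the highest at 5%. The change was -1.14 ± 0.10, 2.20-fold lower (adjusted p = 6e-11), and in PC-3 it was -0.34 ± 0.10 (adjusted p = 0.013), again with 12 of 12 pairs lower.

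BLM, the helicase of Bloom syndrome that dissolves joined strands, was detected on 8 of 12 hypoxia arrays and 12 of 12 normoxia arrays of 22Rv1. Its levels were 4.59, 5.33 and 6.53 (lowest, median, highest) in hypoxia and 6.06, 6.66 and 6.75 in normoxia, a change of -1.15 ± 0.09 (adjusted p = 4.8e-12) in which every pair was lower. RBBP8, which starts end trimming together with the MRE11A, RAD50 and NBN complex, spanned 7.64 to 9.62 with a median of 9.09 in hypoxia against 9.60 to 10.12 with a median of 9.73 in normoxia. Its change of -0.88 ± 0.09 (adjusted p = 2.7e-09) was also shared by 12 of 12 pairs, and only the top hypoxia arrays touched the normoxia range.

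The complex itself behaved unevenly. NBN fell by 0.46 on the log2 scale in 22Rv1 (SE 0.08, adjusted p = 1.7e-05). In PC-3, NBN spanned 7.31 to 8.21 with a median of 7.96 in hypoxia and 8.06 to 8.53 with a median of 8.32 in normoxia, and the change was -0.38 ± 0.08 (adjusted p = 0.00053, 11 of 12 pairs lower). MRE11A was called in PC-3 only (-0.30 ± 0.10, adjusted p = 0.03). In 22Rv1 it was detected on 4 hypoxia and 2 normoxia arrays. The PC-3 call was lost without any 1 of 9 of the 24 arrays (adjusted p up to 0.093). It was also lost without the filter (0.055) and without 0% O2 (0.12). In a fit of all probes, another MRE11A probe was lower in PC-3 (-0.37, adjusted p = 0.0006). A further probe, detected on 12 hypoxia and 12 normoxia arrays there, was not called (-0.08, adjusted p = 0.64). The difference between the lines did not pass (0.35 ± 0.14, adjusted p = 0.079), or did with each same-numbered pair as a block (adjusted p = 0.029). RAD50 was called in neither line (-0.17 ± 0.09 in 22Rv1 and -0.20 ± 0.09 in PC-3). EME1, the partner of MUS81, was lower in 22Rv1 (-0.52 ± 0.07), and WRN, another helicase, had changes of -0.18 in 22Rv1 and -0.19 in PC-3 at adjusted p-values of 0.05 (just under the threshold) and 0.049. The call of WRN in 22Rv1 was lost without both arrays of doubtful label (-0.12, adjusted p = 0.2) and without any 1 of 17 of the 24 arrays. It was also lost under 7 other alternatives, with adjusted p-values up to 0.44. In PC-3 the call of WRN was lost without any 1 of 16 arrays and under median centring (adjusted p = 0.14). It was lost there too without the filter (0.094), with its probes averaged (0.33) and without 0% O2 (0.18).

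The genes called higher in hypoxia were MUS81 and RECQL4, in both lines. MUS81, the catalytic subunit of a nuclease that cuts stalled forks and joined strands, spanned 6.71 to 7.69 with a median of 7.48 on hypoxia arrays of 22Rv1 and 6.85 to 7.37 with a median of 7.13 on normoxia arrays. The ranges overlapped, and 9 of 12 pairs were higher. The change was 0.27 ± 0.08 in 22Rv1 (1.20-fold higher, adjusted p = 0.0053) and 0.22 ± 0.08 in PC-3 (adjusted p = 0.034).

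RECQL4, a helicase with a part in starting replication, spanned 7.56 to 8.76 with a median of 8.30 in hypoxic 22Rv1 and 7.48 to 8.29 with a median of 7.99 in normoxia. The ranges overlapped, and the change was 0.24 ± 0.08 (adjusted p = 0.018, 10 of 12 pairs higher). In PC-3 its levels were 7.22, 7.45 and 7.77 in hypoxia and 6.82, 7.09 and 7.36 in normoxia, with 12 of 12 pairs higher and a change of 0.40 ± 0.08 (1.32-fold higher, adjusted p = 0.00035). The rise in 22Rv1 lost its call without the normoxia array of replicate 2 at 2% O2 (0.20, adjusted p = 0.056) or at 0.2% (0.19, adjusted p = 0.059). Under median centring neither gene was called in 22Rv1 (0.20, adjusted p = 0.15 for MUS81, and 0.13, adjusted p = 0.42 for RECQL4), and MUS81 was not called in PC-3 (0.17, adjusted p = 0.33). The PC-3 call of MUS81 was also lost without any 1 of 12 of the 24 arrays (adjusted p up to 0.091), without 0% O2 (adjusted p = 0.086) and without the filter (adjusted p = 0.06). MUS81 also lost its call in 22Rv1 without 0% O2 (0.20, adjusted p = 0.06). RECQL4 lost its call there with the labels of the doubtful arrays exchanged (0.14, adjusted p = 0.24) and in the other deposited table (0.12, adjusted p = 0.18). RECQL4 was not higher at every level in 22Rv1: its change was 0.38 at 0.5% O2 and -0.22 at 0%.

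Of 8 detected Fanconi genes, 7 were lower in 22Rv1 (median -0.57) and 4 in PC-3 (median -0.17), and 0 were higher in either. FANCE, a core complex subunit that contacts FANCD2, spanned 5.998 to 7.24 with a median of 6.46 on hypoxia arrays of 22Rv1 and 7.18 to 7.51 with a median of 7.41 on normoxia arrays. In PC-3 it spanned 6.96 to 7.46 with a median of 7.22 in hypoxia and 7.25 to 7.87 with a median of 7.61 in normoxia. All 12 pairs were lower in each line, with changes of -0.82 ± 0.06 in 22Rv1 (adjusted p = 1.3e-12) and -0.37 ± 0.06 in PC-3 (adjusted p = 2.9e-05).

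UBE2T, the ubiquitin-conjugating enzyme of the pathway, had the largest mean change of the 37 genes in PC-3. The lowest, median and highest levels there were 8.07, 8.44 and 8.98 in hypoxia and 8.74, 8.98 and 9.23 in normoxia, a change of -0.50 ± 0.07 (1.42-fold lower, adjusted p = 2.5e-06) with every pair lower. In 22Rv1, where the gene was brighter, the hypoxia arrays ran from 10.10 to 11.28 and the normoxia arrays from 11.31 to 11.80, with no overlap and a change of -0.79 ± 0.07 (adjusted p = 9e-11). FANCI and FANCD2, the pair that the ligase marks, changed by -0.79 ± 0.12 and -0.39 ± 0.07 in 22Rv1, and by -0.11 ± 0.12 (not called) and -0.21 ± 0.07 in PC-3. FANCL, the ligase subunit, and FANCG and FANCC, other core subunits, were lower in 22Rv1 by -0.62, -0.52 and -0.49. FANCC was detected on 7 of 12 hypoxia arrays of 22Rv1 and on 1 of 24 arrays of PC-3. FANCA was detected on 8 of 48 arrays by each of 2 probes. The one used here was not called in either line (0.08 in 22Rv1 and 0.16 in PC-3), while the other was lower in 22Rv1 (-0.32, adjusted p = 0.0056 in a fit of all probes) and not called in PC-3 (-0.01), so no direction is given for this gene.

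Among the 4 detected mismatch repair genes, 2 were lower in 22Rv1 and 1 in PC-3. MSH6, the subunit of the MutS complex that reads single mismatches, spanned 8.19 to 9.34 in hypoxic 22Rv1 and 9.25 to 9.52 in normoxia, lower in 12 of 12 pairs (-0.56 ± 0.06, adjusted p = 9.1e-09). In PC-3 its change was -0.12, with an adjusted p of 0.18, or 0.039 with each same-numbered pair as a block. PMS2, a MutL nuclease subunit, was lower in both lines (-0.39 ± 0.09 in 22Rv1 and -0.30 ± 0.09 in PC-3). MSH3, the subunit that reads longer loops, spanned 13.27 to 13.65 in hypoxic 22Rv1 and 13.22 to 13.61 in normoxia, overlapping ranges, and its change was 0.06 ± 0.04 in 22Rv1 and 0.04 ± 0.04 in PC-3 (adjusted p = 0.35 and 0.58). Neither of its 2 detected probes was called. The other probe was far dimmer, with means of 5.31 in hypoxia and 5.47 in normoxia in 22Rv1. Its changes, in a fit of all probes, were -0.16 in 22Rv1 and -0.10 in PC-3. MLH3 was detected on 2 of 48 arrays.

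Of the 5 checkpoint genes, 3 were lower in 22Rv1 and 1 in PC-3. CHEK1, the effector kinase downstream of ATR, had the largest mean change of the 37 genes in 22Rv1. Its hypoxia arrays in 22Rv1 ran from 6.21 through a median of 6.68 to 7.73, and its normoxia arrays from 7.87 through 8.06 to 8.30, so that the groups did not overlap. The change was -1.18 ± 0.08, 2.26-fold lower (adjusted p = 9.1e-14), and in PC-3 it was -0.22 ± 0.08 (adjusted p = 0.039), with 11 of 12 pairs lower there. The PC-3 call of CHEK1 was lost without any 1 of 15 of the 24 arrays and without 0% O2 (adjusted p = 0.17). It was also lost under median centring (0.1), in the other deposited table (0.13) and without the filter (0.066). CHEK2, the effector of ATM, and TOPBP1, an activator of ATR, were lower in 22Rv1 (-0.56 ± 0.09 and -0.37 ± 0.07) and were not called in PC-3 (-0.04 and 0.10). The kinase ATM was detected on every array and did not pass in either line (0.00 ± 0.07 in 22Rv1 and 0.11 ± 0.07 in PC-3), and ATR was detected on 4 arrays of 22Rv1 and 0 of PC-3.

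Some genes had several detected probes, and those of BRCA1 did not all move alike. In 22Rv1 the 2 BRCA1 probes detected on 48 and 47 arrays were lower, with changes of -0.90 and -1.06, while those detected on 28 and 7 of 48 arrays changed by -0.15 and -0.02 and were not called. The call of FANCD2 in PC-3 was lost when its probes were averaged (-0.04, adjusted p = 0.77), and that of PMS2 likewise (-0.15, adjusted p = 0.12). The dimmer probes in these averages were detected on 0 hypoxia and 0 normoxia arrays of PC-3, so they add background there. The PC-3 call of FANCD2 was also lost without any 1 of 13 of the 24 arrays and under median centring (adjusted p = 0.12). It was lost too in the other deposited table (0.075), without the filter (0.063) and without 0% O2 (0.092). PMS2, CHEK2, FANCD2 and BRCA1 have near-identical copies elsewhere in the genome, and the files used here hold no probe sequences, so signal from those copies was not checked.

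The oxygen levels differed in how many of the 37 genes they moved. In 22Rv1, 17 genes were lower at 0% O2, 17 at 0.2%, 24 at 0.5%, 21 at 1%, 6 at 2% and 0 at 5% (limma; 2 genes at an unadjusted p under 0.05 at 5%). Of all genes tested, 15.5% were lower at 0%, 5.18% at 0.2%, 15% at 0.5%, 7.09% at 1%, 1.28% at 2% and 0.00608% at 5%. MUS81 was the 1 gene called higher at a single level, at 0% O2, where 13.6% of all genes were. Median changes of the 37 genes were -0.41, -0.43, -0.84, -0.74, -0.34 and -0.10 from 0 to 5% O2. At 0.2%, 5 genes were called without the hypoxia array of replicate 1 and 10 without either normoxia array, 16 without both arrays of doubtful label, and 0 with their labels exchanged. At 2%, 1 gene was called without the hypoxia array of replicate 1, 0 without that of replicate 2, 1 (a higher one) without the normoxia array of replicate 1, and 1 without that of replicate 2. The 6 calls at 2% became 12 with each same-numbered pair as a block and 1 without the filter. They became 0 under median centring, in the other deposited table or with the doubtful labels exchanged. Median centring left 11 of the 18 calls at 0%.

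**Figure D3:**
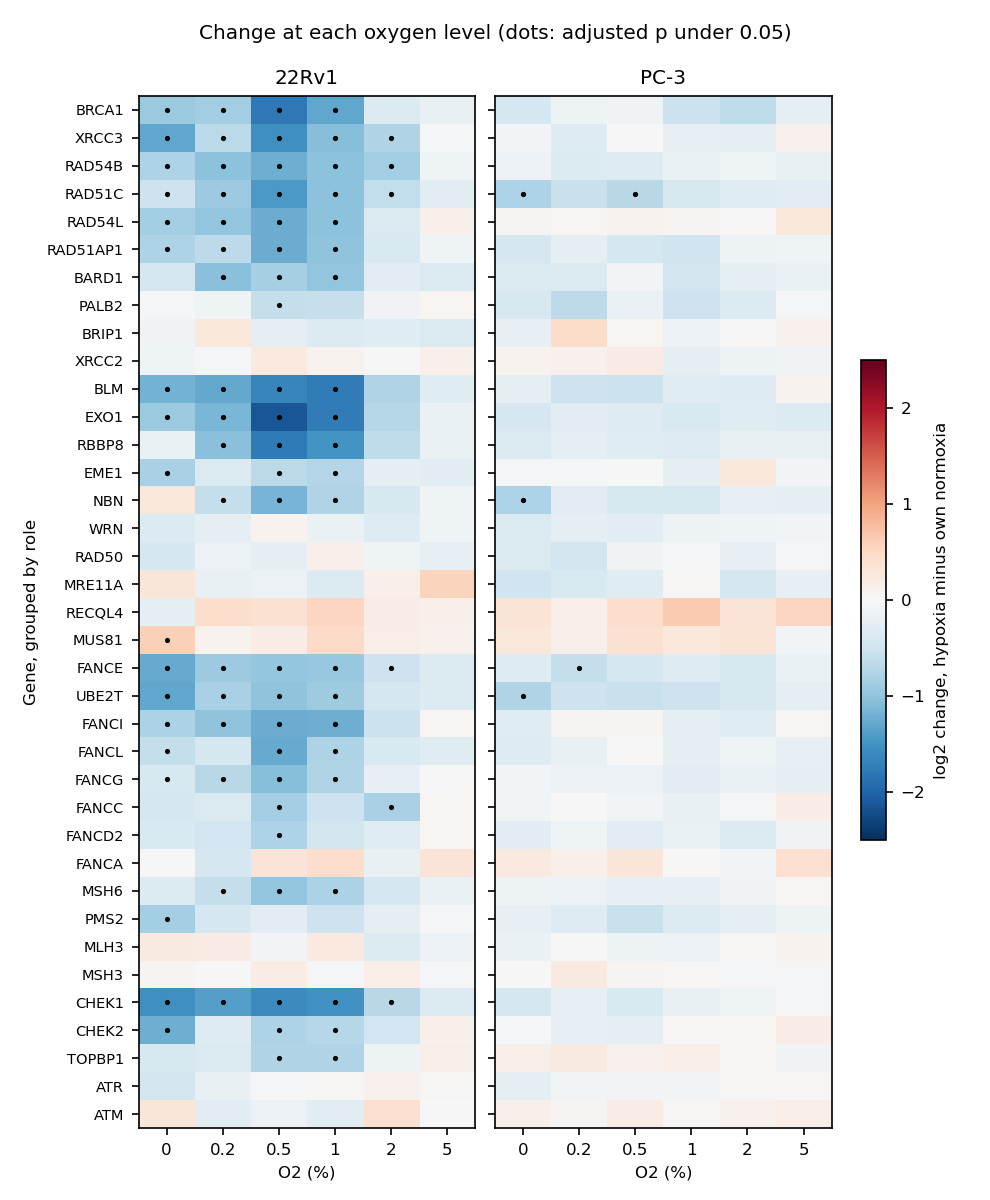
Log2 change (colour, hypoxia minus own normoxia) of each of the 37 genes (rows, grouped by role) at each O2 level (columns, 0 to 5%) in 22Rv1 (left) and PC-3 (right); dots mark an adjusted p under 0.05. The 22Rv1 panel has dots on 18 genes at 0% and 24 at 0.5% and on none at 5%, and the PC-3 panel has 5 dots in all.

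At 0.5% O2 the leading genes of 22Rv1 were EXO1, BRCA1 and RBBP8. EXO1 stood at 5.48 and 6.63 in hypoxia, against 8.06 and 8.35 in normoxia, 4.43-fold lower (-2.15 ± 0.25, limma, adjusted p = 7.7e-08). BRCA1 stood at 6.13 and 6.64, against 8.06 and 8.28 (-1.78 ± 0.22, adjusted p = 2.3e-07). Both hypoxia arrays of each gene were below both normoxia arrays by more than the gap between replicates. RBBP8 stood at 7.64 and 8.28 in hypoxia, against 9.85 and 9.60 in normoxia (-1.76 ± 0.23, adjusted p = 6e-07). At 1% O2, EXO1 changed by -1.75 and CHEK1 by -1.52, and BLM, not detected on either hypoxia array, was at least 2.71-fold lower than in normoxia (adjusted p = 1.1e-06).

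CHEK1 led at both lower levels. At 0% O2 it stood at 6.59 and 6.57 in hypoxia, against 8.07 and 8.15 in normoxia (-1.53 ± 0.20, adjusted p = 2.4e-07), and at 0.2% its change was -1.37. UBE2T (-1.30) and XRCC3 (-1.29) came next at 0%, and BLM (-1.29) and EXO1 (-1.15) at 0.2%. At 2% O2 the leading genes were RAD54B (-0.86), FANCC (-0.82) and XRCC3 (-0.76, adjusted p = 0.05, just under the threshold).

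Several 22Rv1 genes that were lower at 0.5% O2 were closer to their controls at 0%. The difference between the 2 levels was tested after these values had been seen, as the change at 0% minus the change at 0.5%. Of the 37 genes, 5 passed in the positive direction, a smaller fall at 0% than at 0.5%, and 0 in the negative direction. Of all genes tested, 5.16% were higher and 4.16% lower in this contrast. RBBP8 stood at 9.61 and 9.48 in hypoxia at 0%, against 9.80 and 9.60 in normoxia, so its change was -0.16 at 0% and -1.76 at 0.5% (difference 1.60 ± 0.33, adjusted p = 0.0011).

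NBN, at 0%, stood at 8.22 and 8.14 in hypoxia, above its 7.87 and 7.94 in normoxia. At 0.5% it stood at 6.27 and 7.15 in hypoxia, against 7.92 and 7.84 in normoxia. The changes were 0.27 at 0% (not called) and -1.17 at 0.5%, a difference of 1.44 ± 0.28 (adjusted p = 0.00059). EXO1 (1.22 ± 0.35, adjusted p = 0.023), RAD51C (0.90 ± 0.24, adjusted p = 0.014) and FANCG (0.66 ± 0.20, adjusted p = 0.033) also passed.

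The calls of RBBP8 and NBN held without each array in turn, whereas those of EXO1, RAD51C and FANCG did not. Counts were 3 genes without the hypoxia array of replicate 1 at 0%, 3 and 2 without the normoxia array of replicate 1 and of replicate 2 at 0%, 2 without the hypoxia array of replicate 1 at 0.5%, and 3 without the normoxia array of replicate 1 at 0.5%. RBBP8 and NBN were also the 2 genes called under median centring, in the other deposited table and with the doubtful labels exchanged. Averaging the probes of RAD51C gave a difference of 0.37 (adjusted p = 0.46). With each same-numbered pair as a block 8 genes passed, BRCA1 (0.85), MSH6 (0.65) and PMS2 (-0.59) being added. CHEK1 did not differ beyond its error between the 2 levels (0.06 ± 0.28), and its interval is wide. In the same pairs the median change of the G2 and M phase markers was -1.65 and -1.82 at 0% O2 and -0.07 and -0.50 at 0.5%, while that of the S phase markers was -0.94 and -1.12 at 0% and -1.93 and -1.49 at 0.5%. The part of these cell cycle markers in the difference was not tested.

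**Figure D4:**
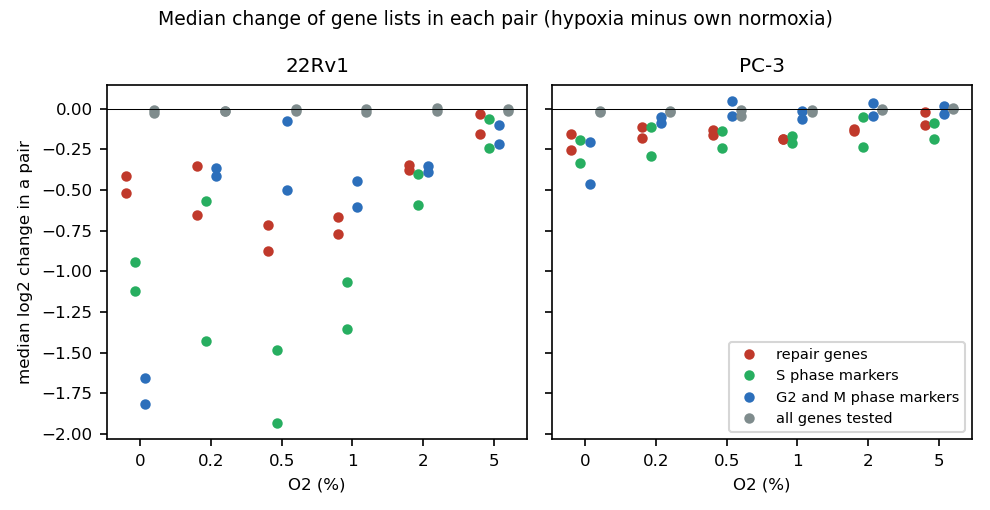
Median log2 change (vertical axis) in each hypoxia and normoxia pair at each O2 level (horizontal axis, %), for the 37 repair genes (red), S phase markers (green), G2 and M phase markers (blue) and all genes tested (grey), in 22Rv1 (left) and PC-3 (right). In 22Rv1 the red points lie between -0.88 and -0.04, with the lowest at 0.5% O2, whereas the blue points are lowest at 0%; all PC-3 red points lie between -0.25 and -0.02.

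In PC-3 few changes passed at a single level. The lower calls numbered 3 at 0% O2, 1 at 0.2%, 1 at 0.5%, and 0 at 1, 2 and 5%, where all genes tested were lower in 4.51% at 0%, 2.03% at 0.2%, 1.66% at 0.5%, 0.237% at 1%, 0% at 2% and 0% at 5%. At 0%, NBN stood at 7.31 and 7.74 in hypoxia, against 8.29 and 8.29 in normoxia (-0.77 ± 0.20, limma, adjusted p = 0.01). RAD51C stood at 9.07 and 9.17 in hypoxia at that level, against 9.90 and 9.88 in normoxia (-0.77 ± 0.17, adjusted p = 0.0031). UBE2T stood at 8.07 and 8.09 in hypoxia, against 8.76 and 8.92 in normoxia (-0.76 ± 0.18, adjusted p = 0.0048). None of the 3 overlapped between conditions. At an unadjusted p under 0.05 there were 8 genes at 1%, 4 at 2% and 1 at 5%.

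The other calls in PC-3 were RAD51C at 0.5% (-0.69, adjusted p = 0.014) and FANCE at 0.2% (-0.59, adjusted p = 0.018). These counts were fragile. At 0% O2, 0 genes passed without the hypoxia array of replicate 1 and 1 without the normoxia array of replicate 2. The call at 0.2% was lost without any 1 of its 4 arrays, and 2 genes passed there without the hypoxia array of replicate 1 or 2 at 5%. The call at 0.5% was lost without the hypoxia array of replicate 2 or either normoxia array. With each same-numbered pair as a block 11 calls were made over the levels in place of 5.

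A linear trend over the ranked levels, per step from 5 towards 0% O2, passed for 9 of the 37 genes in 22Rv1, all towards lower levels, against 6.58% of all genes. The largest slopes belonged to CHEK1 (-0.23 ± 0.05 per step, adjusted p = 0.00088), RAD54L (-0.20 ± 0.03), XRCC3 (-0.19 ± 0.05) and CHEK2 (-0.18 ± 0.05). In PC-3 the trend passed for 0 of the 37 genes by limma, against 1.65% of all genes in either direction, with 1 gene at an unadjusted p under 0.05. The count in 22Rv1 was 5 without the normoxia array of replicate 1 at 0% or of replicate 2 at 5%. It was 15 without the hypoxia array of replicate 2 at 0.2%, 14 without both arrays of doubtful label and 1 with their labels exchanged. With each same-numbered pair as a block it was 16, and under median centring 0.

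The difference between the lines was tested directly, as the mean change in 22Rv1 minus that in PC-3. It passed for 20 of the 37 genes, all more negative in 22Rv1, where 11.5% of all genes were, and the median difference was -0.35, against 0.00 for all genes. The largest differences were those of CHEK1 (-0.95 ± 0.11, adjusted p = 1.4e-07), BLM (-0.85 ± 0.13), RAD54L (-0.81 ± 0.08) and EXO1 (-0.80 ± 0.14). The count was 20 without both arrays of doubtful label and 16 with their labels exchanged. One of the 20, FANCC, was near background in PC-3, so its difference does not compare measured changes. BLM was also dim in PC-3, with a normoxia mean of 5.51 and detection on 7 of 12 hypoxia arrays there. Its change in PC-3 may be compressed, so the size of its difference is uncertain. RAD54L changed by -0.72 in 22Rv1 and by 0.09, not called, in PC-3. Genes whose changes did not differ beyond their error included NBN (-0.08 ± 0.11), PMS2 (-0.09 ± 0.12), WRN (0.02 ± 0.10) and MUS81 (0.04 ± 0.11), although intervals of this width do not show that the lines respond alike.

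In normoxia 28 of the 37 genes differed between the lines, a share near the 71.8% of all genes that did. Of the 28, 20 were higher and 8 lower in 22Rv1 than in PC-3, against 39.3% of all genes higher and 32.5% lower. The count was 30 without both arrays of doubtful label and 26 with their labels exchanged. The alternative with pairs as blocks was not run for this comparison. Its p-values treat the 12 arrays of a line as separate, although same-numbered arrays of different levels shared part of their deviations. UBE2T averaged 11.53 ± 0.14 in 22Rv1 and 8.99 ± 0.15 in PC-3 (SD, n = 12 each), 5.85-fold higher (limma, adjusted p = 8.2e-26). FANCG and BRCA1 were 3.03 and 2.76-fold higher in 22Rv1. RAD50 was also higher in 22Rv1, where it was detected on 12 of 12 normoxia arrays, against 5 of 12 of PC-3, too few there for a fold. MRE11A, the nuclease that works with RAD50, averaged 5.04 ± 0.16 in 22Rv1 and 7.06 ± 0.14 in PC-3 (SD, n = 12 each, adjusted p = 9.2e-19). It was detected on 2 of 12 normoxia arrays of 22Rv1, too few for a fold, and on 12 of 12 of PC-3. ATM, WRN and CHEK1 were 2.71, 1.71 and 1.46-fold lower in 22Rv1. A probe matches a line's own sequence only as far as the line carries the reference bases, which was not checked here.

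Other genes of the same pathways were read from lists drawn up alongside the 42. The shares of all genes to set beside their counts are 22.8% lower and 19.8% higher in 22Rv1 and 13.3% lower and 10.7% higher in PC-3. Of 28 other homologous recombination genes measured, 16 were lower and 1 higher in 22Rv1 and 7 and 0 in PC-3, with medians of -0.31 and -0.10. PSMC3IP (-0.93) and FIGNL1 (-0.85) led in 22Rv1, and RPA2, a subunit of the protein that coats single strands, changed by -0.76 in 22Rv1 and -0.31 in PC-3. Of 13 other mismatch repair genes, which include the sliding clamp PCNA and its loader, 10 were lower and 1 higher in 22Rv1 and 5 and 0 in PC-3. PCNA (-1.19) and RFC3 (-1.07) led, and POLD4, a small polymerase subunit, was the gene that rose (0.97). Of 14 other checkpoint genes, 11 were lower and 0 higher in 22Rv1 and 4 and 1 in PC-3, led by the phosphatase CDC25A (-1.30) and the fork protein TIPIN (-1.25).

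Of 15 other Fanconi genes, 4 were lower and 1 higher in 22Rv1 and 5 and 1 in PC-3 (medians -0.05 and -0.06), with APITD1 at -0.77 and STRA13 at -0.54 in 22Rv1. Those counts of lower genes in 22Rv1 are near the share of all genes. Of 11 end joining genes, 4 were lower and 3 higher in 22Rv1 and 2 and 2 in PC-3 (medians 0.04 and -0.02); XRCC5, a subunit of the end-binding Ku protein, fell by 0.56 and the polymerase POLM was higher by 0.44 in 22Rv1. Of 24 excision repair genes, 12 were lower and 1 higher in 22Rv1 and 9 and 0 in PC-3 (medians -0.15 and -0.12), led by the flap nuclease FEN1 (-1.05) and the glycosylase OGG1 (-0.74). Whether the lists differ from one another was not tested.

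The promoters of the genes were searched for the letters recognised by E2F factors, which drive many replication genes. Promoters, from RefSeq on GRCh38.p14 and reaching from 250 bases before to 50 bases after the start of the gene, were found for 37 of the 42 genes. TTTGGCGC, TTTCCCGC, TTTGCCGC or TTTCGCGC, on either strand, occurred in 9 of these 37 (24.3%), against 908 of 27305 promoters of the table (3.33%), which were not matched for base composition. Among genes lower in 22Rv1 the share was 6 of 22 (27.3%), and among the other genes with a value it was 3 of 10 (30.0%). Those 10 are not all genes shown to stay level. BRIP1 was not detected on any 22Rv1 array, and MLH3, ATR, FANCA and MRE11A were detected there on few. FANCA, for which no direction is given, is among the 3 with the letters. The hypoxia response letters ACGTG or GCGTG occurred in 29 of 37 (78.4%) against 48.4% of all promoters. Another promoter element of cycling genes, TTTGAA, occurred in 4 of 37 (10.8%) against 15.4%, and CCAAT in 19 of 37 (51.4%) against 35.7%.

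EXO1, FANCD2 and MSH6 were lower in 22Rv1, and MSH3 was not called. The promoters of these 4 genes are shown as examples that hold the E2F letters, in capitals. They lie on the plus strand of GRCh38.p14 at chr1:241847954-241848253 (EXO1), chr3:10026187-10026486 (FANCD2), chr2:47782895-47783194 (MSH6) and chr5:80654402-80654701 (MSH3). In MSH3 the capitals are 2 overlapping matches on opposite strands.
EXO1: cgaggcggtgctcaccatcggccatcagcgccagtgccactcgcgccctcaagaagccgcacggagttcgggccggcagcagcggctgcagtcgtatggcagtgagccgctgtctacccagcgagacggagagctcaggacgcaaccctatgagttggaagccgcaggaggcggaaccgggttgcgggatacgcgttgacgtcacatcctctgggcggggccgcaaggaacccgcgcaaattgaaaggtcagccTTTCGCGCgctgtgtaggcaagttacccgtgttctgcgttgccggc
FANCD2: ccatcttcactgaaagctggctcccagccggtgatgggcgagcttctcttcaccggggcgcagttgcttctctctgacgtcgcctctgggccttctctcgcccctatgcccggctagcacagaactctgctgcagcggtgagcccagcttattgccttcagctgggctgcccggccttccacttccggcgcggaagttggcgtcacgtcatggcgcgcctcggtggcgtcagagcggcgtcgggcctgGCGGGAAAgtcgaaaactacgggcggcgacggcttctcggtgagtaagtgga
MSH6: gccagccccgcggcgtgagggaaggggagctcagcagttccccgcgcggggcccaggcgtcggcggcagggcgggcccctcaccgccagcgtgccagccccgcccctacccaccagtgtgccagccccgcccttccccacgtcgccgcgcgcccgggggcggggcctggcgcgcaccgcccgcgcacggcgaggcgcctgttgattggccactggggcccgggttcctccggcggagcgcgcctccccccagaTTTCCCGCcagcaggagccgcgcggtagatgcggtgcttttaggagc
MSH3: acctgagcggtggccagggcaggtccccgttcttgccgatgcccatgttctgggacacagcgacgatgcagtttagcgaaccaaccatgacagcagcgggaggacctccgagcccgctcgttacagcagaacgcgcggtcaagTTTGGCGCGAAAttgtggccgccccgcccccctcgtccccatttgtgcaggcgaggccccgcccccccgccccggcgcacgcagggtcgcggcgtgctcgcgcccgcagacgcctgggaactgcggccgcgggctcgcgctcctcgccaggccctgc
The matches of EXO1, FANCD2 and MSH6 lie within a few bases of the start of the gene, and those of MSH3 begin 107 and 103 bases before it. EXO1 changed by -1.14, MSH6 by -0.56, FANCD2 by -0.39 and MSH3 by 0.06 in the mean over levels in 22Rv1. The value of MSH3 is that of its brighter probe, and the other changed by -0.16 (not called). A match is a stretch of letters and not evidence of binding, and the part of these letters in the changes was not tested.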

How the data were processed

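The authors deposited, for every probe and array, an unnormalised bead intensity and a detection p-value. The submitters' processing notes name BeadStudio 3.1.3.0, and the steps of the p-values imply 770 negative control probes. The values show no background subtraction. A second table deposited by the authors holds linear intensity values; their normalization was not stated, and it served as an alternative. Total RNA was prepared with a miRNeasy kit, per the labels' protocols.

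From the intensities, neqc of limma 3.58.1 (R 4.3.3) corrected the background with the detection p-values, added an offset of 16, normalised between arrays by quantiles and took log2. Probes detected (p under 0.01) on at least 2 arrays and carrying a symbol were kept, 16438 symbols in all, each by its brightest probe; 3270 of 47323 probes have no symbol. One limma fit with 24 group means (24 residual degrees of freedom, variance trend) gave every contrast, with Benjamini-Hochberg adjustment within a contrast. A level is a log2 intensity, which includes affinity of the probe, so levels of different genes were not compared. "At least" folds set the lowest detected signal against an undetected group. The fit was tested on simulated data. Figures used matplotlib.

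The genes, lists and rules for naming genes were chosen with earlier results of these data known. Array values are given for the 8 genes with the largest mean change in 22Rv1, the 5 in PC-3 and those higher, then 3 per level and 4 per other comparison; further genes fill out each role. Same-numbered arrays of a level were taken as pairs, and each pair was a block in that alternative. Over all genes, deviations from the group means correlated at 0.18 to 0.45 in 22Rv1 and 0.33 to 0.47 in PC-3 for every pair. The mean was 0.29 in 22Rv1 and 0.40 in PC-3. With same-numbered controls of other levels it was 0.16 and 0.32, so the correlation was only in part particular to the pair. Column letters A and B were read as replicates 1 and 2. Alternatives covered the block, scaling, background, table, filters, probes, labels, levels and each array left out. One marker gene of the lines is not reported here.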

Additional observations from a re-analysis of the deposited data

Results flagged for a closer look

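Each of the genes below changed by a different amount in the 2 lines, by a test of the difference itself (mean change in 22Rv1 minus that in PC-3, log2 scale, limma with adjustment over all genes tested). All 20 were more negative in 22Rv1. The checkpoint kinase CHEK1 differed by -0.95 (adjusted p = 1.4e-07), CHEK2 by -0.52 (0.0017) and TOPBP1 by -0.47 (0.00096). Among helicases, nucleases and resolvases the differences were -0.85 for BLM (adjusted p = 1e-05), -0.80 for EXO1 (9.5e-05), -0.62 for RBBP8 (0.00081) and -0.51 for EME1 (0.00026). Among genes of the BRCA1 complex and strand exchange they were -0.81 for RAD54L (adjusted p = 6.4e-09), -0.77 for XRCC3 (3.7e-05), -0.63 for RAD54B (6.4e-05), -0.56 for BRCA1 (0.0015), -0.39 for RAD51AP1 (0.0053) and -0.30 for RAD51C (0.026). Among Fanconi genes they were -0.68 for FANCI (adjusted p = 0.0037), -0.47 for FANCC (0.0078), -0.45 for FANCE (0.00025), -0.45 for FANCL (0.0086), -0.35 for FANCG (0.0018) and -0.29 for UBE2T (0.036). The mismatch repair gene MSH6 differed by -0.43 (adjusted p = 0.00048). FANCC was detected on 1 of 24 arrays of PC-3, near background, so its difference does not compare measured changes. BLM was detected on 7 of 12 hypoxia and 11 of 12 normoxia arrays of PC-3, so its change there may be compressed. The call of UBE2T was lost without any 1 of 20 of the 48 arrays, and under median centring (adjusted p = 0.088), in the other deposited table (0.14), without the filter (0.06), with the doubtful labels exchanged (0.29) and without 0% O2 (0.14). That of RAD51C was lost without either of 2 arrays, under median centring (0.092), in the other table (0.37) and with labels exchanged (0.36), and that of FANCE in the other table (0.22) and with labels exchanged (0.13). RAD51AP1 lost its call with labels exchanged (0.072) and FANCC under median centring (0.053).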

How the results depend on the processing

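Calls of single genes were followed in the means of both lines, the difference between lines and the difference between 0 and 0.5% O2. No such call changed direction under any alternative run. At single levels, in the trends and in normoxia only counts were followed. Main counts of the 37 genes were 28 (22Rv1 mean), 19 (PC-3 mean), 20 (difference between lines), 28 (normoxia), 86 and 5 (single levels in 22Rv1 and PC-3), and 9 and 0 (trends). With each same-numbered pair as a block, the trends gave 16 in 22Rv1 and 1 in PC-3 and the single levels of PC-3 gave 11. In the means the block added BARD1 and MSH6 in PC-3. It added BARD1 and MRE11A in the difference between lines, and it changed no other call in these comparisons. Median centring left 11 in the PC-3 mean and 0 in the 22Rv1 trend. It shifted the median of all genes by 0.21 and 0.10 at 5 and 2% O2 and by -0.29 at 0.5% in PC-3, and by -0.20 at 5% in 22Rv1. Without the filter the PC-3 mean gave 11, with more genes sharing the adjustment, and without 0% O2 it gave 12. The 22Rv1 median of -0.52 became -0.32 without background correction and -0.28 in the other deposited table, and the PC-3 median of -0.18 became -0.11 in each. That table, which carries the exchanged labels, gave 1 for the 22Rv1 trend and 2 and 57 for the single levels of PC-3 and 22Rv1; exchanging the labels alone gave 1 and 57 in 22Rv1. Leaving out both doubtful arrays, an alternative chosen after seeing the data, gave a 22Rv1 trend of 14. Leaving out 1 array gave 25 to 28 (22Rv1 mean), 12 to 19 (PC-3 mean), 18 to 21 (difference), 28 to 29 (normoxia), 77 to 91 and 2 to 6 (single levels in 22Rv1 and PC-3), and 5 to 15 and 0 to 0 (trends). Except for the filter and the omissions, whose construction shows it, the cause was not tested. Genes near background, such as BLM and FANCC in hypoxia, have compressed changes.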
